A study of Homo sapiens with 16 samples.

Results

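The genes RGS2, RGS3, RGS4, RGS5, RGS10, RGS12, RGS16, RGS19 and RGS20, 9 members of the family of regulators of G-protein signalling (RGS), were followed across 6 treatment groups of CCD-1070Sk, an established human fibroblast line from normal skin. They are 9 of the 28374 genes in the deposited count table, and all 9 were among the 18575 genes tested. The list was chosen by gene name and with a result of these data in view, since RGS4 had been selected on its lower level with EGF and H89 together than with EGF alone. That difference is therefore given as a description with no test, and the interaction of EGF with H89 for RGS4 is treated in the same way. The other RGS4 comparisons that use the EGF libraries or the libraries of EGF with H89 share samples with it. The selection favours high RGS4 values in the EGF libraries and low ones with both agents. The p-values of those comparisons are therefore not independent of it.

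All cells had been serum starved. The groups were untreated cells sampled at 0 h (3 libraries), cells given epidermal growth factor (EGF) at 30 ng/ml for 1 h (3 libraries), cells given the phorbol ester TPA at 100 nM for 1 h (2 libraries), and cells given the kinase inhibitor H89 at 10 µM for 30 min with no mitogen (labelled 0 h, 3 libraries). In 2 further groups of 2 libraries each, the 30 min of H89 came before EGF or before TPA for 1 h. The labels describe more than 1 schedule for the inhibitor, so cells given both agents may have met H89 for longer than cells given H89 alone, and H89 exposure and mitogen treatment cannot be told apart there. The labels name the inhibition of the kinase MSK as the purpose of H89. A further untreated sample held the same count as control 3 at every gene and was counted once, which left 15 libraries. All libraries come from 1 cell line, and nothing in the labels says that replicates were separate cultures, so the p-values below reflect only how far these libraries differ, and part of that may be technical.

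RGS proteins speed up the hydrolysis of GTP on the alpha subunits of heterotrimeric G proteins and so shorten the signal of G protein-coupled receptors. The small members RGS2, RGS4, RGS5 and RGS16 act mainly on alpha subunits of the Gi and Gq classes, and RGS2 is best known for limiting Gq signals. Several of these genes are known as rapidly regulated genes in other cells, whereas EGF acts through a receptor tyrosine kinase and TPA through protein kinase C. H89 inhibits protein kinase A, MSK kinases and others, and both of those kinases can phosphorylate CREB, a factor that binds the cAMP response element (CRE).

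The sequences just upstream of RGS4, RGS16 and RGS2 are shown because these are the 3 genes with the largest fitted differences in any pairwise comparison, and because the CRE is the element through which the inhibited kinases are known to act. Each line is the RefSeq sequence of the 250 bases before a transcription start, in the direction of the gene, in build GRCh38.p14. RGS4 lies at chr1:163069111-163069360 on the plus strand, RGS16 at chr1:182604390-182604639 on the minus strand and RGS2 at chr1:192808789-192809038 on the plus strand. Capitals mark a match to a searched motif.

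RGS4: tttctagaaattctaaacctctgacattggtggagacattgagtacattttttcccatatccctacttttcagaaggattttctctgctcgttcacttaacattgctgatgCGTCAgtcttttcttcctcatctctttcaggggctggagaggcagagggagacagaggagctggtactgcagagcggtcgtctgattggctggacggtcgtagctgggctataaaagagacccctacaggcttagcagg
RGS16: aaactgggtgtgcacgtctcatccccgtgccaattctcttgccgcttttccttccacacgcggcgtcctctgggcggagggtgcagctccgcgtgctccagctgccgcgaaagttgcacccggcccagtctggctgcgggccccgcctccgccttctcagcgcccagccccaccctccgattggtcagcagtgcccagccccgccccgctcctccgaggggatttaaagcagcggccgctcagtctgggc
RGS2: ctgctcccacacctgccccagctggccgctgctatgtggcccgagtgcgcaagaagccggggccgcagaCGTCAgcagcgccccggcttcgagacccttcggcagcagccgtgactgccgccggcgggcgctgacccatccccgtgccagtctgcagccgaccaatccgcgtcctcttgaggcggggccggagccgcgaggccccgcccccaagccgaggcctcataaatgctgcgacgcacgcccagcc

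The motifs searched on both strands were the full CRE (TGACGTCA), its core (TGACG, which lies within the full site), the AP-1 site (TGANTCA), the EGR site (GCGNGGGCG) and the CArG box. The RGS4 sequence held 1 CRE core starting at position -139 from the transcription start, and the RGS2 sequence held 1 at position -181. Both were read on the strand opposite to the one printed. The RGS16 sequence held no match to any of them. Of all 35116 RefSeq windows of the same 250 bases, 21.2% held the CRE core, 1.65% the full CRE, 6.57% the AP-1 site, 8.41% the EGR site and 1.16% the CArG box. RefSeq lists several starts for RGS4, and the one shown was picked after its match was seen. A match is a string of letters, and no binding was measured here. RGS2, RGS4, RGS5 and RGS16 are 4 of the 9 genes and all lie on chromosome 1, where RGS4 and RGS5 are neighbours on opposite strands.

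The libraries held between 7527026 and 130075914 counts (median 39091712), and the shallowest was TPA+H89 1. Read from the counts alone, they fell into 3 technical batches. In batch A, control 1 and EGF 1, more genes had a count of 1 than of 2. In batch B, 1 library of each group, the RNR1 and RNR2 ribosomal RNA genes took 11.69% to 30.43% of the counts. In batch C, the other 7 libraries, those genes took none. Batch B was uneven, with 11.69% in TPA 1 and 12.03% in TPA+H89 1 but 24.78% to 30.43% in its other libraries. Differences within batch B between libraries with and without TPA therefore cross this gap, which the batch term does not model. In batch A the share was 4.48% in control 1 and 0.018% in EGF 1. Control 1, EGF 1 and TPA 2 were the libraries least like the others. The mitogen response gene EGR2 rose by 4.11 ± 0.52 on the log2 scale (SE) with EGF and by 5.49 ± 0.57 with TPA (adjusted p = 0.0207 and 0.00131, edgeR quasi-likelihood test with Benjamini-Hochberg adjustment). DUSP5, likewise a check gene, also passed with both (adjusted p = 0.0162 and 0.000821, edgeR). The check genes EGR1 and NR4A1 passed with TPA (adjusted p = 0.0209 and 0.00817, edgeR). With EGF they rose by 3.16 ± 0.69 and 3.28 ± 0.675 but did not pass (adjusted p = 0.293 for both, edgeR). Not passing therefore does not show that a gene did not respond. All 12 fibroblast markers were above 1 CPM (counts scaled to a common library size) on average, and the endothelial, keratinocyte and leukocyte lists each had 1 of 8 markers above that level and the melanocyte list 2 of 7.

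Levels are given below as CPM scaled by TMM factors, and fold changes are those of the edgeR fit on the log2 scale with their SE. In that fit, with group as the only term, none of the 9 genes passed an adjusted p of 0.05 in any of 10 comparisons. RGS4 was left out of this statement for EGF+H89 against EGF and for the interaction of EGF with H89. The share of all tested genes that passed was 0.0269% for EGF against control, 0.415% for TPA against control, 0.0269% for EGF+H89 against H89 and 0.0969% for TPA+H89 against H89. It was 0% for both interactions, TPA against EGF, H89 against control, TPA+H89 against TPA, and EGF+H89 against EGF. Of the 9 genes, 1 had an unadjusted p under 0.05 with EGF (1.63% of all tested genes), 4 with TPA (13.2%) and 1 with H89 (3.27%), each against control. The same was true of 2 in TPA+H89 against TPA (7% of all genes), 1 in EGF+H89 against H89 (1.53%) and 2 in TPA+H89 against H89 (3.89%). It was true of 3 in TPA against EGF (13.4%) and of 2 in the interaction of TPA with H89 (4.78%). The median log2 fold change of the 9 genes was 0.19 with EGF, 0.24 with TPA and -0.35 with H89, each against control, beside 0.02, -0.02 and -0.05 over all tested genes. With the batch term described below, the TPA median was 0.66 and the H89 median -0.06.

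RGS4 had the largest fitted difference between EGF and control of the 9 genes. Untreated cells gave 13.7, 8.76 and 6.37 CPM in controls 1, 2 and 3, and EGF gave 55.1, 28.8 and 33.6 CPM in EGF 1, 2 and 3. Every EGF library was above every control library, which held for 1 of the 9 genes in this comparison and for 4.95% of all tested genes in either direction. The fitted difference was 2.03 ± 0.41 on the log2 scale (4.07-fold, 95% interval 1.14 to 2.92, n = 3 and 3). It ranked 16 of 18575 by p and did not pass (adjusted p = 0.293, edgeR quasi-likelihood test). RGS4 was selected with these EGF libraries, which favours high EGF values, so the rank and p-value are not independent of the selection.

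The RGS4 difference between EGF and control was of similar size in each technical batch, at 2.01 in batch A, 1.72 in batch B and 2.40 in batch C, each from 1 library per group. With a term for the batch in the edgeR fit it was 2.02 ± 0.31 and passed (adjusted p = 0.00937), where 0.221% of all genes passed and RGS4 was the 1 member of 9. DESeq2 without that term gave 2.02 ± 0.43 and also passed it (adjusted p = 0.00138), where 0.413% of the genes with an adjusted p passed. Both calls reuse the EGF libraries on which RGS4 was selected, so their p-values are tilted towards passing. The call under the batch term did not hold without control 1, control 2, control 3, EGF 1 or EGF 3 (adjusted p = 0.165, 0.0512, 0.182, 0.165 and 0.0794), with values between 1.81 and 2.25.

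**Figure D1:**
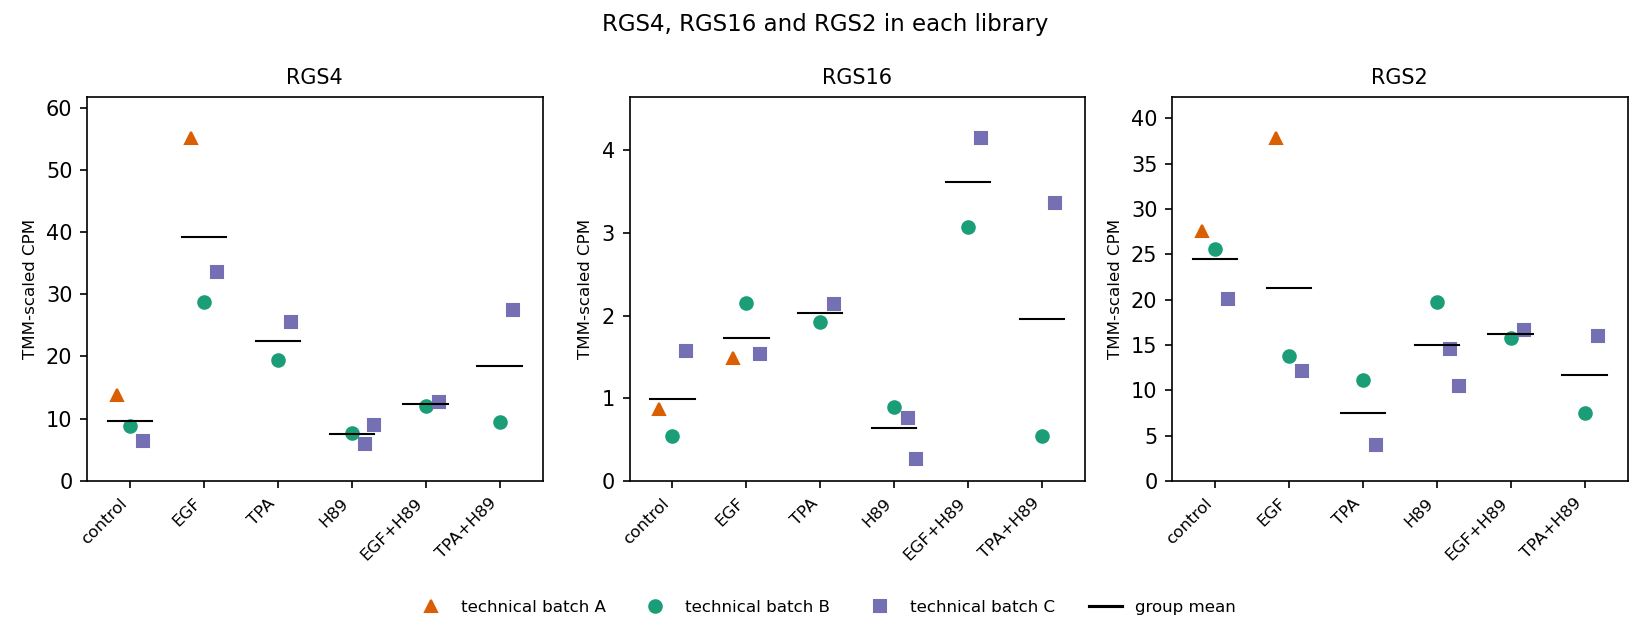
TMM-scaled CPM (linear axes from 0) of RGS4, RGS16 and RGS2 in each of the 15 libraries, by treatment group, with marker shape for the technical batch and a bar for the group mean. The 3 EGF libraries lie between 28.8 and 55.1 CPM of RGS4, above all other libraries, and the EGF+H89 libraries have 2 of the 3 highest RGS16 levels.

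TPA also went with a higher RGS4 level. The 2 TPA libraries gave 19.4 and 25.5 CPM, both above the 3 controls and both below the 3 EGF libraries. The fitted difference from control was 1.22 ± 0.44 (95% interval 0.28 to 2.17) and did not pass (adjusted p = 0.290, edgeR quasi-likelihood test). It was 1.15 within batch B, where TPA 1 and control 2 differed in ribosomal RNA share, and 2.00 within batch C. The batch term gave 1.54 ± 0.35, which passed (adjusted p = 0.0402, edgeR). There 1.25% of all genes passed and RGS4 was the 1 member of 9. That call did not hold without control 1, control 2, control 3 or TPA 2 (adjusted p = 0.123, 0.108, 0.378 and 0.141), with values between 1.27 and 1.82. TPA against EGF was -0.80 ± 0.45 for RGS4 (adjusted p = 0.422, edgeR), at -0.57 within batch B and -0.40 within batch C. With the batch term it was -0.48 ± 0.35, and 0.334% of all genes passed that comparison, none of them a member.

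With H89 alone, RGS4 was close to the level of untreated cells. The H89 libraries gave 7.71, 5.91 and 9.02 CPM, overlapping the controls, and the fitted difference was -0.35 ± 0.40 (95% interval -1.21 to 0.51). With EGF after H89, RGS4 was at 12.1 CPM in batch B and 12.7 CPM in batch C, below every EGF library. Both values lay within the control range only through control 1 of batch A, at 13.7 CPM. They were above the controls of batches B and C, at 8.76 and 6.37 CPM. EGF+H89 against EGF is the contrast on which RGS4 was selected. Its fitted log2 difference was -1.66, with -1.26 within batch B and -1.40 within batch C. Both EGF+H89 libraries were above the 3 libraries with H89 alone, by a fitted 0.72 ± 0.44 (95% interval -0.24 to 1.67), compared with the 2.03 of EGF without H89. The interaction for RGS4, chosen with the same libraries, was -1.31 on the log2 scale.

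RGS4 behaved less uniformly with TPA after H89. The 2 libraries gave 9.48 CPM in batch B, from 52 counts, and 27.4 CPM in batch C, so they overlapped the TPA libraries. The fitted difference from TPA alone was -0.27 ± 0.49 (95% interval -1.32 to 0.78, adjusted p = 0.997, edgeR), with -1.04 within batch B and 0.10 within batch C. It turned to 0.36 without TPA+H89 1 and was -1.25 without TPA+H89 2. Against H89 alone, TPA+H89 gave 1.31 ± 0.44 (adjusted p = 0.994, edgeR), with 0.30 within batch B and 1.91 within batch C, and 0.32 without TPA+H89 2. Ordered by mean CPM, RGS4 ran from EGF (39.2 ± 14.03, SD) through TPA (22.5 ± 4.32), TPA+H89 (18.5 ± 12.7), EGF+H89 (12.4 ± 0.45) and control (9.62 ± 3.75) to H89 (7.55 ± 1.56). Only the step from EGF to TPA separated neighbours whose libraries did not overlap.

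**Figure D2:**
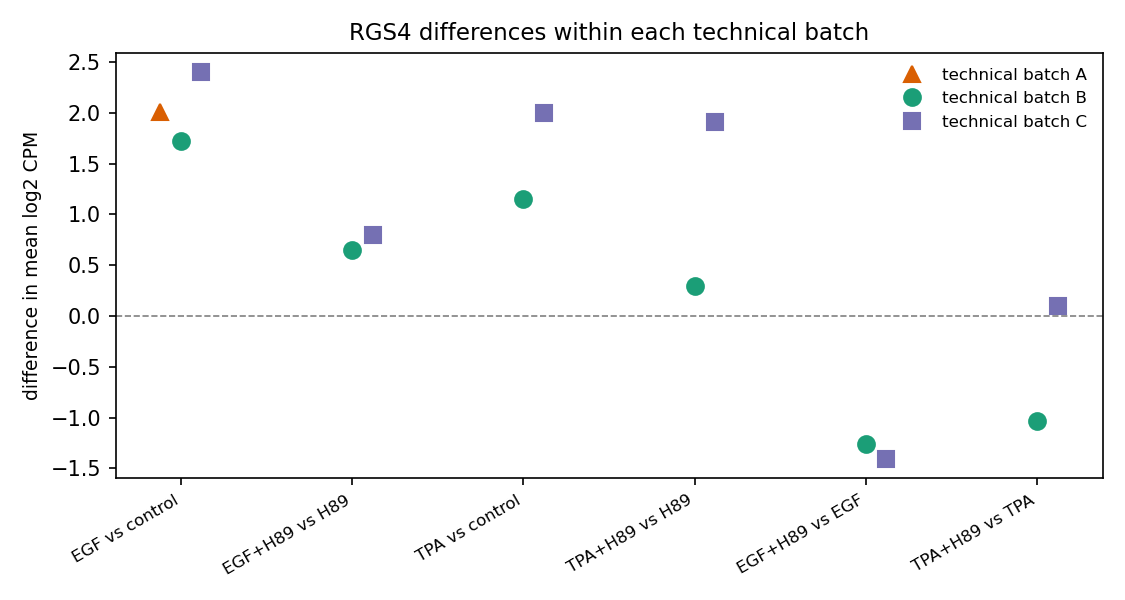
Differences of RGS4 in mean log2 CPM between groups (vertical axis), computed within each technical batch (marker shape) for 6 comparisons, with no difference at the dashed line. EGF against control is between 1.72 and 2.40 in all 3 batches, and TPA+H89 against TPA is -1.04 in batch B and 0.10 in batch C.

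RGS16, a small RGS protein that acts on Gi and Gq class subunits, was sparse and highest with EGF after H89. Controls gave 0.869, 0.540 and 1.57 CPM (40, 9 and 63 counts), H89 alone 0.901, 0.760 and 0.268 CPM, and EGF+H89 3.07 and 4.15 CPM. Both EGF+H89 libraries were above every H89, EGF, TPA and control library. Against H89 alone the fitted difference was 2.51 ± 0.66 (5.69-fold, 95% interval 1.09 to 3.93), with 1.77 within batch B and 3.20 within batch C. It did not pass (adjusted p = 0.713, edgeR quasi-likelihood test), nor with the batch term (2.55 ± 0.60, adjusted p = 0.153), where 0.269% of all genes passed and no member did.

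The other RGS16 contrasts were smaller or rested on 1 library. EGF gave 1.49, 2.15 and 1.54 CPM and overlapped the controls, with a difference of 0.77 ± 0.59 that was 0.78, 1.99 and -0.03 within batches A, B and C. TPA gave 1.92 and 2.14 CPM, above the 3 controls, with a difference of 1.01 ± 0.65 (adjusted p = 0.461, edgeR). TPA+H89 gave 0.547 CPM from 3 counts in batch B and 3.37 CPM from 262 counts in batch C. Its difference from H89 alone was 1.73 ± 0.66, and it turned to -0.22 without TPA+H89 2. EGF+H89 was 1.07 ± 0.64 above EGF on the log2 scale (95% interval -0.32 to 2.46), where RGS4 was lower in both libraries.

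RGS2, the regulator best known for limiting Gq signals, was lowest with TPA. Controls gave 27.6, 25.6 and 20.1 CPM and the 2 TPA libraries 11.1 and 3.94 CPM, with no overlap. The fitted difference was -1.70 ± 0.57 (0.307-fold, 95% interval -2.94 to -0.46), with -1.20 within batch B and -2.35 within batch C. It did not pass (adjusted p = 0.275, edgeR quasi-likelihood test), nor with the batch term (-1.47 ± 0.45, adjusted p = 0.113). The lower of the 2 values came from TPA 2. The difference was -1.13 without TPA 2, -2.67 without TPA 1 and -1.04 without control 1, EGF 1 and TPA 2 together.

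With EGF, RGS2 was at 37.9 CPM in batch A but at 13.7 and 12.1 CPM in batches B and C. The within-batch differences from control were 0.46, -0.90 and -0.73, so the sign in batch A was opposite to that in the other two, and the fitted value was -0.20 ± 0.48. H89 alone gave 19.7, 14.6 and 10.5 CPM, all below the controls, with a difference of -0.71 ± 0.48 (adjusted p = 1.00, edgeR). EGF+H89 gave 15.8 and 16.6 CPM and TPA+H89 7.47 and 15.96 CPM, both overlapping the H89 libraries. The TPA+H89 difference from TPA was 0.66 ± 0.60, at -0.57 within batch B and 2.02 within batch C. All neighbouring groups in the order of mean RGS2 levels overlapped.

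Counting all 9 genes, RGS2 and RGS5 were lower and RGS4, RGS16 and RGS20 higher in both TPA libraries than in all controls. That is 5 of 9 genes without overlap, where 19.7% of all tested genes showed none. With H89 alone, RGS2 was lower and RGS20 higher without overlap, 2 of 9 beside 7.1% of all genes. In EGF+H89 against EGF, RGS4 was lower and RGS16, RGS19 and RGS20 higher, 4 of 9 beside 17.7%, a count that includes the gene the list was selected on. In TPA+H89 against TPA it was RGS5 higher and RGS20 lower, 2 of 9 beside 21.6%. In EGF+H89 against H89, RGS3, RGS4 and RGS16 were higher, 3 of 9 beside 22.6%, and in TPA+H89 against H89, RGS4 and RGS5 were higher, 2 of 9 beside 20.8%. In TPA against EGF, RGS2 and RGS4 were lower and RGS20 higher, 3 of 9 beside 20.8%. With the batch term, 0.431% of all genes and no member passed in TPA+H89 against H89, and 0% of all genes passed in both interactions, H89 against control, TPA+H89 against TPA, and EGF+H89 against EGF.

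**Figure D3:**
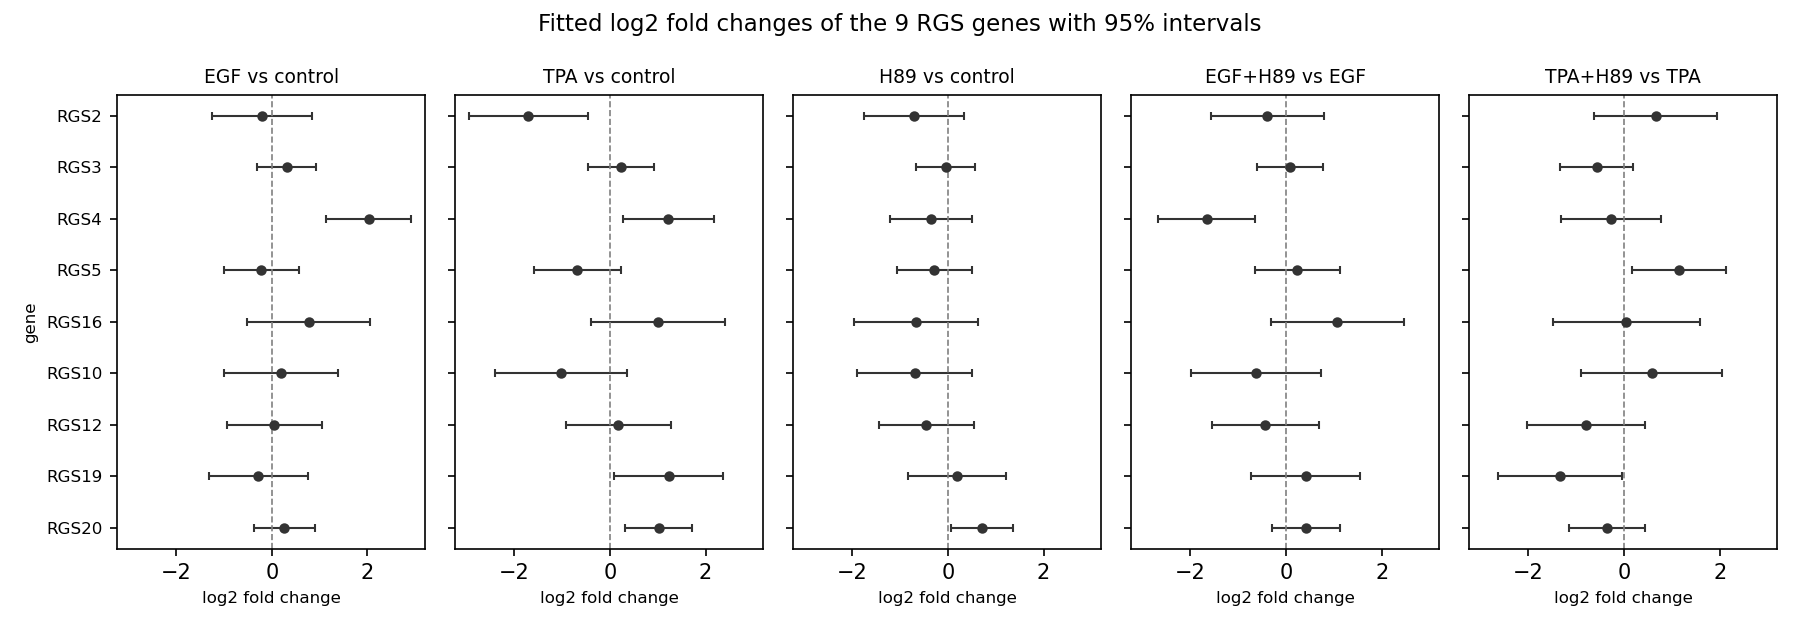
Fitted log2 fold changes (horizontal axis) of the 9 genes in 5 comparisons, as points with 95% intervals from the edgeR fit with group as the only term. RGS4 lies at 2.03 with EGF and at 1.22 with TPA. No gene passed the adjusted threshold in any panel, leaving out RGS4 in EGF+H89 against EGF. That RGS4 point and its interval are a description with no test, since RGS4 was selected on this contrast.

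RGS5, a small RGS protein widely used as a marker of pericytes, differed in direction between TPA alone and TPA after H89. Controls gave 2.91, 3.54 and 4.86 CPM, TPA 2.48 and 2.24 CPM, H89 2.86, 3.34 and 3.09 CPM and TPA+H89 6.56 and 4.02 CPM. The TPA libraries were below all controls, by -0.68 ± 0.42, and the TPA+H89 libraries above all H89 libraries, by 0.75 ± 0.41. TPA+H89 against TPA was 1.15 ± 0.46, at 1.40 within batch B and 0.84 within batch C, and did not pass (adjusted p = 0.713, edgeR). The higher of the 2 TPA+H89 values, 6.56 CPM, came from the shallowest library.

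Of 12 pericyte and smooth muscle markers, 8 were above 1 CPM on average. Among them CSPG4, ABCC9, NOTCH3 and KCNJ8 averaged 154.4, 54.9, 42.3 and 7.61 CPM. HIGD1B and COX4I2, which are close to specific for pericytes, averaged 0.0885 and 0.0154 CPM. The summed level of the list was 404 to 530 CPM in controls, 382 to 438 with EGF, 540 to 853 with TPA, 388 to 722 with H89, 346 to 350 with EGF+H89 and 486 to 586 with TPA+H89. The highest sum, 853 CPM, was in a TPA library, the group in which RGS5 was lowest. Their part in the RGS5 levels was not tested, and in bulk RNA fewer cells of a type and less RNA per cell cannot be told apart. RGS5 also overlaps NUF2 on the opposite strand in GENCODE 29, and the sources used here do not say whether the counting used the strand.

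RGS3, a small RGS gene with long and short isoforms, varied little between the untreated and H89 groups. Controls gave 38.1, 39.2 and 34.9 CPM and H89 gave 37.8, 36.9 and 34.2 CPM, with a difference of -0.04 ± 0.28 (95% interval -0.66 to 0.57). EGF+H89, at 46.0 and 51.8 CPM, was above every H89 library, by 0.43 ± 0.32. The 2 TPA libraries stood on either side of the controls, at 28.2 and 59.8 CPM, with -0.48 within batch B and 0.78 within batch C. EGF gave 43.3, 39.2 and 56.4 CPM, and TPA+H89 gave 21.1 and 37.8 CPM.

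RGS20 and RGS19 belong to the RZ group of RGS proteins, which act on Gi class subunits including Gz. RGS20 was at 1.89, 1.32 and 1.69 CPM in controls, at 2.76 and 3.92 CPM with TPA and at 2.47, 2.47 and 3.12 CPM with H89. TPA and H89 libraries were all above the controls. The differences were 1.02 ± 0.32 for TPA (95% interval 0.32 to 1.73, adjusted p = 0.246, edgeR), at 1.06 within batch B and 1.21 within batch C, and 0.71 ± 0.30 for H89 (95% interval 0.07 to 1.35, adjusted p = 1.00, edgeR). With EGF it was at 2.03, 1.59 and 2.28 CPM and overlapped the controls. EGF+H89 (2.85 and 2.44 CPM) and TPA+H89 (2.73 and 2.49 CPM) overlapped H89 alone, with differences of -0.03 ± 0.33 and -0.05 ± 0.34.

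RGS19 stood apart in 1 library. It lay between 4.26 and 10.2 CPM in 14 libraries and at 25.9 CPM in TPA 2, while TPA 1 was at 5.24 CPM. The fitted TPA difference from control was 1.23 ± 0.52, but it was -0.22 within batch B and 2.60 within batch C and turned to -0.34 without TPA 2. The TPA+H89 difference from TPA, -1.34 ± 0.60, turned to 0.24 without TPA 2, and TPA against EGF, 1.52 ± 0.53, turned to -0.05. Without TPA 1, which left TPA 2 as the lone TPA library with its spread assumed to be that of the other groups, RGS19 passed in all 3 comparisons (adjusted p = 0.0299, 0.0459 and 0.0179, edgeR). In that setting 5.92%, 3.59% and 5.81% of all tested genes passed, or 1187, 719 and 1165 genes, beside 77, 0 and 0 with both TPA libraries. MIR6813 lies within RGS19 on the same strand.

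RGS10 and RGS12 belong to another group of RGS proteins, in which RGS10 is the smallest and RGS12 carries further domains. Both were highest in batch A. RGS10 was at 66.9 CPM in control 1 and 85.3 CPM in EGF 1, and between 14.9 and 35.4 CPM in the other 13 libraries. RGS12 was at 36.2 CPM in control 1 and 36.1 CPM in EGF 1, at 35.5 CPM in TPA 2, and between 10.4 and 18.8 CPM in the other 12. The largest fitted value of the pair against control was RGS10 with TPA, -1.03 ± 0.64, which was -0.50 within batch B and -0.08 within batch C. For both genes the libraries of all neighbouring groups in the order of mean levels overlapped.

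**Figure D4:**
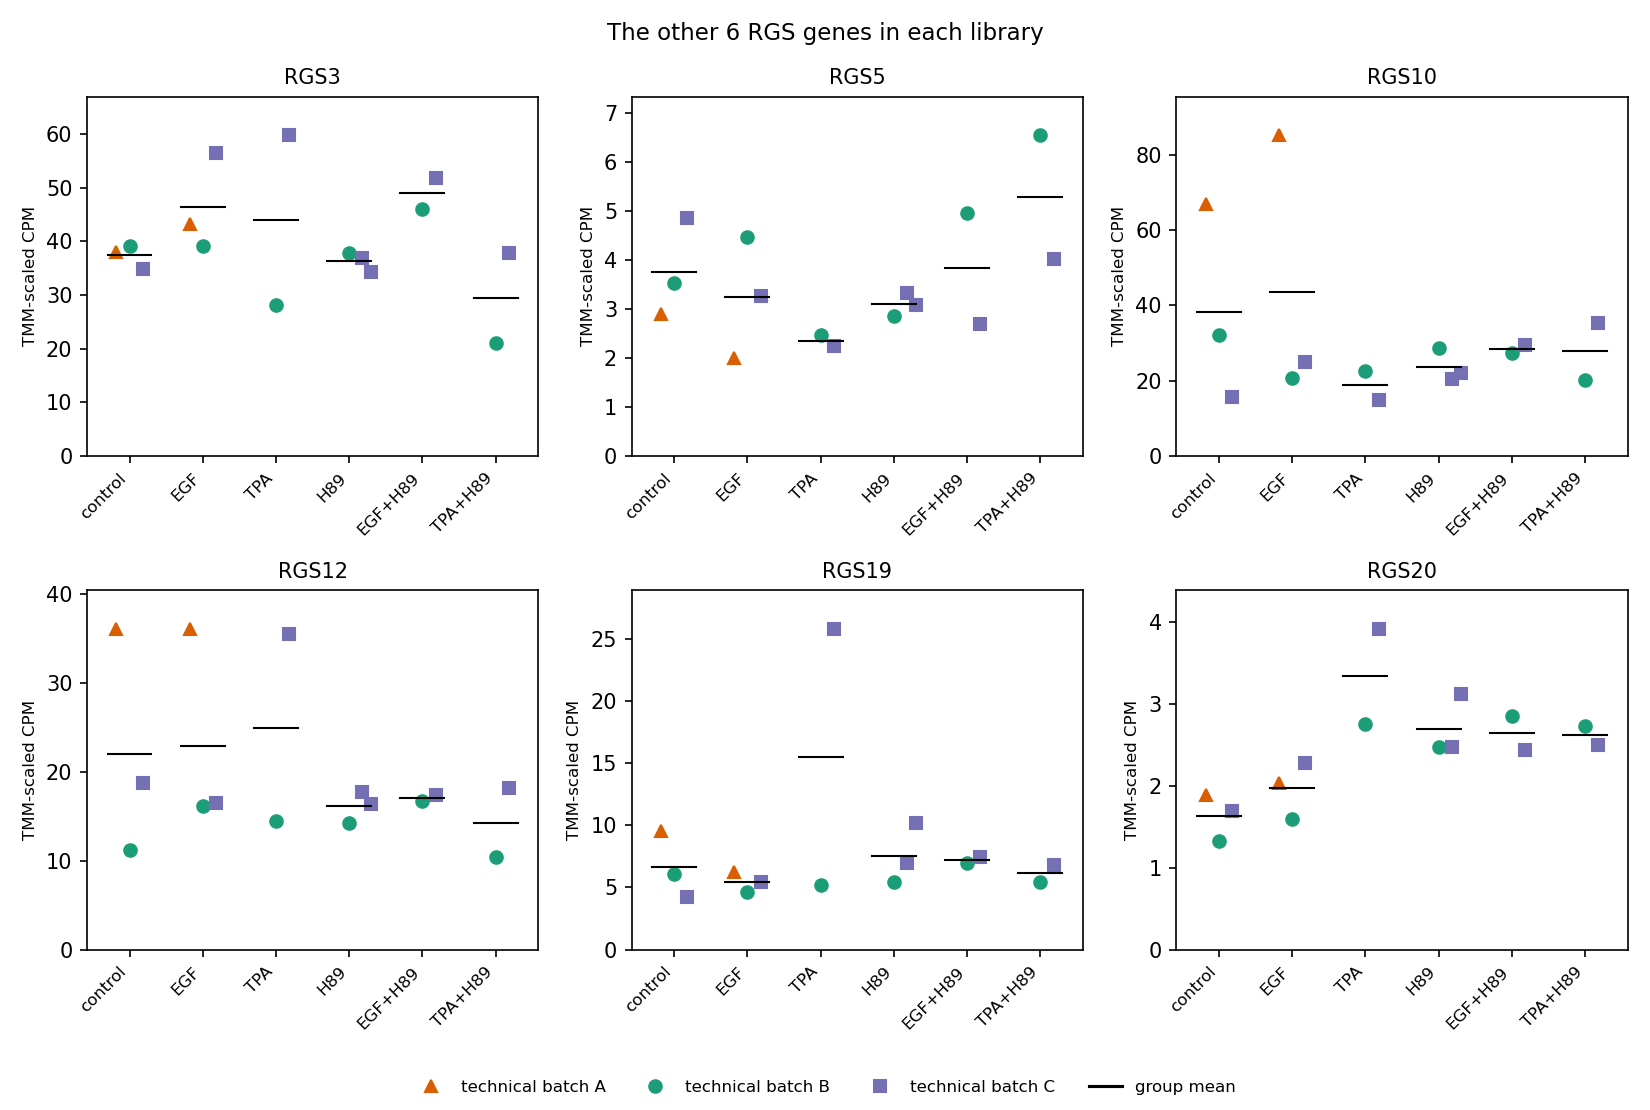
TMM-scaled CPM (linear axes from 0) of RGS3, RGS5, RGS10, RGS12, RGS19 and RGS20 in each of the 15 libraries, by treatment group, with marker shape for the technical batch and a bar for the group mean. RGS10 is highest in the 2 libraries of batch A (66.9 and 85.3 CPM), and RGS19 is at 25.9 CPM in TPA 2 alone.

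Across the 15 libraries, RGS2 varied with RGS10 (Pearson r = 0.751, Spearman rho = 0.718) and against RGS20 (r = -0.716, rho = -0.70). These are descriptions over libraries that share treatments, batches and depth. Of 13457 genes with a mean of at least 1 CPM, those most like RGS4 in log2 CPM were MAP3K14, ERRFI1 and TRAF4 (r = 0.899, 0.891 and 0.879, rho = 0.893, 0.85 and 0.768). ERRFI1 encodes an inhibitor of the EGF receptor and MAP3K14 the kinase NIK. For RGS16 they were ETS2, PFKFB3 and MAP3K8 (r = 0.871, 0.843 and 0.823, rho = 0.875, 0.864 and 0.757). For RGS2 they were CREB3L4, NPRL2 and MKS1 (r = 0.935, 0.934 and 0.927, rho = 0.932, 0.879 and 0.836).

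The genes that RGS proteins act with did not pass either. Of 12 other RGS genes, 8 had enough counts to be tested and none passed in any comparison, with or without the batch term. The same held for 11 G alpha subunits, 12 beta and gamma subunits, 15 tested of 16 effectors, 7 receptor kinases and arrestins, and 22 tested of 23 G protein-coupled receptors. With EGF against control, none of these genes had an unadjusted p under 0.05 in edgeR. With TPA against control, 3 of 11 alpha subunits, 1 of 7 kinases and arrestins and 6 of 22 receptors did, beside 13.2% of all tested genes. None of the 8 other RGS genes, the 12 beta and gamma subunits or the 15 effectors did.

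The named genes of lowest p in the TPA comparison show the sizes involved. GNAZ, the Gz alpha subunit on which RGS19 and RGS20 act, had a TPA difference of 1.10 ± 0.31 (adjusted p = 0.204, edgeR). Both TPA libraries were above all controls, but TPA 1 was at 22.55 CPM, near the 20.03 CPM of control 1, and TPA 2 at 46.0 CPM. GNA11, a Gq class subunit, had 1.27 ± 0.42 (adjusted p = 0.264), but it was at 84.1 CPM in TPA 1, within the control range of 70.1 to 107.5 CPM, and at 320.3 CPM in TPA 2. ARRB1, which encodes beta-arrestin, had -0.99 ± 0.30 (adjusted p = 0.222, edgeR), and the histamine receptor HRH1 -1.50 ± 0.42 (adjusted p = 0.204, edgeR). The receptor EDNRB had the largest fitted value of these, at -7.26 with a wide SE of 2.27 (adjusted p = 0.246, edgeR). Both TPA libraries were below all controls for EDNRB. TPA+H89 against TPA gave -0.99 ± 0.35 for GNAZ and -1.37 ± 0.47 for GNA11 (adjusted p = 0.713 for both, edgeR). For GNA11 the TPA+H89 libraries, at 72.0 and 84.1 CPM, overlapped TPA 1. Among receptors, OXTR had 1.01 ± 0.46 with H89 against control (adjusted p = 1.00, edgeR).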

How the data were processed

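Total RNA from serum-starved CCD-1070Sk cells underwent ribosomal RNA depletion before strand-specific library preparation, per the labels' protocols, which name 3 sequencing platforms without tying them to samples. The authors deposited 1 table of raw counts, 28374 gene symbols by 16 samples. The submitters' processing notes name HOMER, hg19 and GRCh37. Aligner and gene annotation: not given in the sources used here.

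Groups came from the labels. Control 4 equalled control 3 at all 19340 genes with a count in either and was dropped. Counts were tested in R 4.3.3 with edgeR 4.0.16 (filterByExpr with a smallest count of 10, TMM factors, glmQLFit and glmQLFTest, 15 libraries, group as the only term), with Benjamini-Hochberg adjustment over all 18575 genes kept and a threshold of 0.05. The levels are CPM from edgeR, and log2 values for likeness used a prior count of 2. Technical batches were read from the share of ribosomal RNA genes (above 10%) and from genes at a count of 1 against 2. DESeq2 1.42.0, a batch term, other size factors, other filters and left-out libraries were alternatives. The code was tested on simulated data. All 9 members were named, and in each pathway list up to 2 genes of lowest p could be. The members, lists and tests were chosen with earlier results of these data known. RefSeq sequences were searched for 8 of the 9 members, and RGS20 was left out of that search. Totals per library bound the precision, and low counts such as those of RGS16 vary most.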

Additional observations from a re-analysis of the deposited data

Results flagged for a closer look

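RGS5 and RGS20 were marked because every library of 1 treated group lay on one side of its reference group while every library of another lay on the other side, under the same agent. TPA against control was -0.68 for RGS5 without H89, and TPA+H89 against H89 was 0.75, a difference of 1.43 ± 0.58 on the log2 scale. The edgeR interaction of TPA with H89 tests this difference and did not pass (adjusted p = 0.900). It was 1.71 within batch B and 1.44 within batch C.

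H89 went with a higher RGS20 level in untreated cells (0.71) and with EGF (0.42) but a lower one with TPA (-0.36). The EGF value was 0.84 within batch B and 0.10 within batch C. The TPA value was -0.01 within batch B and -0.65 within batch C. The difference between the TPA and untreated settings was -1.07 ± 0.47 and did not pass as an interaction (adjusted p = 0.900, edgeR). The difference between the TPA and EGF settings was -0.78 and was not tested.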

How the results depend on the processing

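Of the alternatives for the count of members called, 136 left it as reported and 6 raised it. With EGF against control it was 1 (RGS4) with DESeq2 and 1 (RGS4) with the batch term, and with TPA against control 1 (RGS4) with the batch term. Leaving out single libraries gave 0 to 1 in TPA against control, in TPA+H89 against TPA and in TPA against EGF, the 1 being RGS19 without TPA 1. Leaving out single libraries moved RGS19 from -0.34 to 1.92 with TPA against control, from -2.06 to 0.24 in TPA+H89 against TPA and from -0.0527 to 2.22 in TPA against EGF, RGS4 from -1.25 to 0.36 in TPA+H89 against TPA, and RGS16 from -0.22 to 2.42 in TPA+H89 against H89. Without control 1, EGF 1 and TPA 2 together, RGS19 in TPA+H89 against TPA was 0.25. Under the batch term, RGS4 with EGF was 2.03 without control 1 and EGF 1 (adjusted p = 0.160, edgeR), 2.04 without the 3 libraries that stand apart (adjusted p = 0.0775) and 1.81 to 2.25 without single libraries. With TPA it was 1.55 (adjusted p = 0.122), 1.46 (adjusted p = 0.290) and 1.27 to 1.82. Fewer samples entered each of these fits, and the cause was not tested further. The 2 RGS4 calls under the batch term did hold with other size factors (adjusted p = 0.0109 with EGF and 0.0452 with TPA, edgeR). They also held with no filter (adjusted p = 4.16e-09 with EGF and 0.00022 with TPA, edgeR). The log2 values with no filter were 2.01 and 1.53, so these far lower p-values came with no larger difference. Why they fell was not tested. The EGF call also held without EGF 2 (adjusted p = 0.0413, edgeR). These settings under the batch term, and those for single members other than RGS4 in EGF+H89 against EGF, were chosen after seeing the data. That RGS4 value, on which the gene was selected, ranged from -1.84 to -1.32 over 13 settings that reuse the same libraries, which is a description and no support for it.

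Counts over all genes moved more: 0 to 62 with EGF, 0 to 1187 with TPA, 0 to 3 with H89, 0 to 1 in EGF+H89 against EGF, 0 to 719 in TPA+H89 against TPA, 0 to 55 in EGF+H89 against H89, 0 to 84 in TPA+H89 against H89, 0 to 1165 in TPA against EGF and 0 to 126 in the interaction of TPA with H89. Replicate numbers could not serve as a block, since the labels give each sample a running number alone. The batch term is the closest to a matched fit, though ribosomal RNA shares differed within batches A and B. The 2 RGS4 calls that the batch term adds are given above. Groups of 2 and 3 libraries, unequal batches and RGS16 counts as low as 3 limit what can be seen.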
